A study of Mus musculus with 9 samples.

Results

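Of the 552 binding summits listed for wildtype lung epithelial cells in a Sox2 ChIP-seq experiment, 241 lay in regions that shared not even 1 bp with a region of the other lists. These wildtype-only summits, selected on which regions the 3 peak lists hold, made up 43.7% of the wildtype list (exact binomial 95% interval 39.5 to 47.9%), sat in 237 distinct regions, and are the subject of this account. The 3 lists together hold 3370 summits. A summit is the position of highest ChIP pileup within a region, and a region with several summits counts once for each.

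The material was lung epithelium from C57BL/6 mice aged 8 weeks. Cells were wildtype, carried ectopic Sox2 expression, or carried ectopic Sox2 expression together with deletion of Nkx2-1, and each condition had 1 Sox2 ChIP library made with the same goat antibody. Input and IgG libraries of each condition, which bring the series to 9 libraries, were not analysed here. The sources used here do not give how Sox2 was expressed, which cells lost Nkx2-1, how the epithelium was isolated or whether animals were pooled. A list of peaks holds no expression value, so neither the cell type nor the genotypes could be checked against marker genes. Each condition stands on 1 library, so differences between them lack replicates and p-values are not printed. Intervals cover counting error only.

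Sox2 is a transcription factor with an HMG box, a DNA-binding domain that sits in the minor groove at short AT-rich sequences and bends the DNA. It usually binds together with partner factors, and the partners a cell provides decide much of where it is found. In the lung Sox2 marks the conducting airway, where basal and secretory cells use it, while Nkx2-1 sets lung identity in both airway and alveolus. Sites listed in wildtype cells alone are the ones for which the lists give no sign of Sox2 once it was expressed ectopically, with or without Nkx2-1. The ectopic Sox2 list is short, with 229 summits against 552 in wildtype and 2589 with Nkx2-1 deletion. Of the wildtype summits, 38 were shared with ectopic Sox2 alone and 63 were found in all 3 lists. The 210 shared with Nkx2-1 deletion alone were unlisted with ectopic Sox2 too. Most wildtype summits were thus missing from that list, and this does not set the members apart.

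Membership rests on which regions each list holds, so the strength of the members in wildtype and their absence elsewhere are described and not tested. Depth, expressed as the average number of ChIP fragments over a base, came to 0.963 for the wildtype library, 1.45 for the one with Nkx2-1 deletion and 0.764 for ectopic Sox2. A member with the same occupancy everywhere would thus gather 0.793 times as many fragments with ectopic Sox2 and 1.51 times as many with Nkx2-1 deletion. In bulk chromatin, fewer bound cells and weaker binding per cell cannot be told apart.

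The sequences at hand cover promoters, 250 bases before to 50 bases after a transcription start, from RefSeq (build GRCm38.p6, the build named mm10 in the labels). Of the 21263 promoters of protein-coding genes listed there, 5 were overlapped by a wildtype-only region, each by 1 member. They are shown because they are the members whose binding window can be read. Letters of the Sox hexamers ACAATG and ACAAAG, searched on both strands, are in capitals, and each sequence runs 5′ to 3′ along its gene.
Cox19, minus strand, chr5:139345117-139345416: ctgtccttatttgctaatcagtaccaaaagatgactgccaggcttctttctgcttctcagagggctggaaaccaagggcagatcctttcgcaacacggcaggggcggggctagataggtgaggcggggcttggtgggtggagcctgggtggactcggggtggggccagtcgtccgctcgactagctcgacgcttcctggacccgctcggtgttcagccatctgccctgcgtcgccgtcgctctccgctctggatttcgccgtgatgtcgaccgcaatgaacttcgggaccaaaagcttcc
Fmo2, minus strand, chr1:162898444-162898743: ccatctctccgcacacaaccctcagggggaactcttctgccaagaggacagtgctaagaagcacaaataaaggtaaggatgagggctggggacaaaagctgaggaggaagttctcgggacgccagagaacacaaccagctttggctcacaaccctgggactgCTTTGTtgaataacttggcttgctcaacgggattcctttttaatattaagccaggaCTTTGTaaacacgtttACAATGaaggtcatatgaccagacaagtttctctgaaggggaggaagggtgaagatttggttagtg
Tex2, minus strand, chr11:106612881-106613180: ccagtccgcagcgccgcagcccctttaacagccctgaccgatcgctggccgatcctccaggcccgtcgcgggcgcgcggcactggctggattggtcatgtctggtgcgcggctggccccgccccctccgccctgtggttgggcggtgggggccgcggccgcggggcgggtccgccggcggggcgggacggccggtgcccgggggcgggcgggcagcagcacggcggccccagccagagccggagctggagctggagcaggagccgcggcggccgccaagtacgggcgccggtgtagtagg
Ltbp1, plus strand, chr17:75178531-75178830: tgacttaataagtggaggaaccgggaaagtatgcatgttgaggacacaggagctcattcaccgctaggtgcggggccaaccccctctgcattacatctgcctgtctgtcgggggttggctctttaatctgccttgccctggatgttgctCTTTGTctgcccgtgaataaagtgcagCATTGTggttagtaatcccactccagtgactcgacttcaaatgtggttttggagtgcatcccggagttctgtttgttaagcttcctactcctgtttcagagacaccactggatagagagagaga
Ercc2, plus strand, chr7:19381767-19382066: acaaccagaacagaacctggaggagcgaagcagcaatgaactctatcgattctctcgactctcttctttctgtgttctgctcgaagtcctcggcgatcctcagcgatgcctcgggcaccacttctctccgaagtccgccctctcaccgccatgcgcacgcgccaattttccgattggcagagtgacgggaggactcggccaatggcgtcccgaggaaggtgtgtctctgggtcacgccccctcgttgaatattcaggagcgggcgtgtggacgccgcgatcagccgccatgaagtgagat

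Fmo2, which encodes a flavin monooxygenase prominent in the lung, had 34 ChIP fragments (interval 23.5 to 47.5) at a summit 7 bp before its start. An ACAATG hexamer was centred 6.5 bp from that summit, and copies of the other hexamer, read as CTTTGT, were centred 22.5 and 78.5 bp from it. Ltbp1, which encodes a matrix protein that stores latent Tgf-beta, had 35 fragments (24.4 to 48.7) at a summit 61 bp before a start that lies within the gene span. Its hexamers were centred 10.5 and 37.5 bp from the summit. All 5 hexamers in these promoters lay inside the ChIP region. The promoters of Cox19, Tex2 and Ercc2 held neither hexamer, and the parts of the Cox19 and Tex2 regions outside them were not read. Either hexamer occurs in 25.7% of all promoters of protein-coding genes, so 2 of 5 is a description of these loci and not a rate. The GC content of the promoters was 78.7% for Tex2, 60.3% for Cox19, 58.7% for Ercc2, 50.0% for Ltbp1 and 47.7% for Fmo2, beside a median of 56.3% over all promoters.

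By the authors' −log10 q, the strongest wildtype-only summit lay inside Tjp1, which encodes the tight junction scaffold ZO-1. It spanned chromosome 7, 65454224 to 65454490 (mm10), 73.5 kb from the nearest end of the gene, with a −log10 q of 20.1 and the 9th place in the wildtype list. It held 36 fragments (25.2 to 49.8) over a control background worth 1.59 fragments, a fold enrichment of 12.7 as the authors' peak caller gives it. Next came summits inside Ppp2r2b, a regulatory subunit of the phosphatase PP2A, and inside Cbl, a ubiquitin ligase that marks activated Egf receptor for degradation. Both had 33 fragments (22.7 to 46.3) and a fold of 12.7, at chromosome 18, 42947842 to 42948194, and at chromosome 9, 44191112 to 44191482. Peak1, a pseudokinase of the cytoskeleton, held a summit of 40 fragments (28.6 to 54.5) at chromosome 9, 56280774 to 56281051. Over all members, the median distance to a region of the Nkx2-1 deletion list was 232 kb. The nearest region of the other lists was 88.4 kb from the Tjp1 summit, 639 kb from that of Ppp2r2b, 649 kb from that of Cbl and 112 kb from that of Peak1.

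The next strong members were nearest to Zfp362 (39 fragments), Tmem135 (36), Cox19 (46), St3gal3 (29), Dthd1 (40), Stk38l (53), Arntl (44) and Megf11 (47). Cox19 serves the assembly of cytochrome c oxidase, St3gal3 is a sialyltransferase, Stk38l is a kinase linked to the Hippo pathway and Arntl encodes the circadian factor Bmal1. Summits nearest to Spidr, Meis1, Sucnr1, Col23a1, Immp2l, Gm11677, Chst11 and Ermard completed the strongest 20, with 33, 25, 25, 32, 22, 30, 24 and 29 fragments. Ranked by fold instead, Nfib, a nuclear factor needed for lung maturation, entered the strongest 10 with 21 fragments (13.0 to 32.1) over a background equal to the genome-wide value. Of the strongest 20 summits, those of Zfp362, Cox19, Arntl, Meis1, Sucnr1, Immp2l, Gm11677 and Ermard lay outside the gene they are named for, at distances from 0.039 kb for Cox19 to 509 kb for Gm11677. A nearest gene need not be the gene a site serves.

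**Figure D1:**
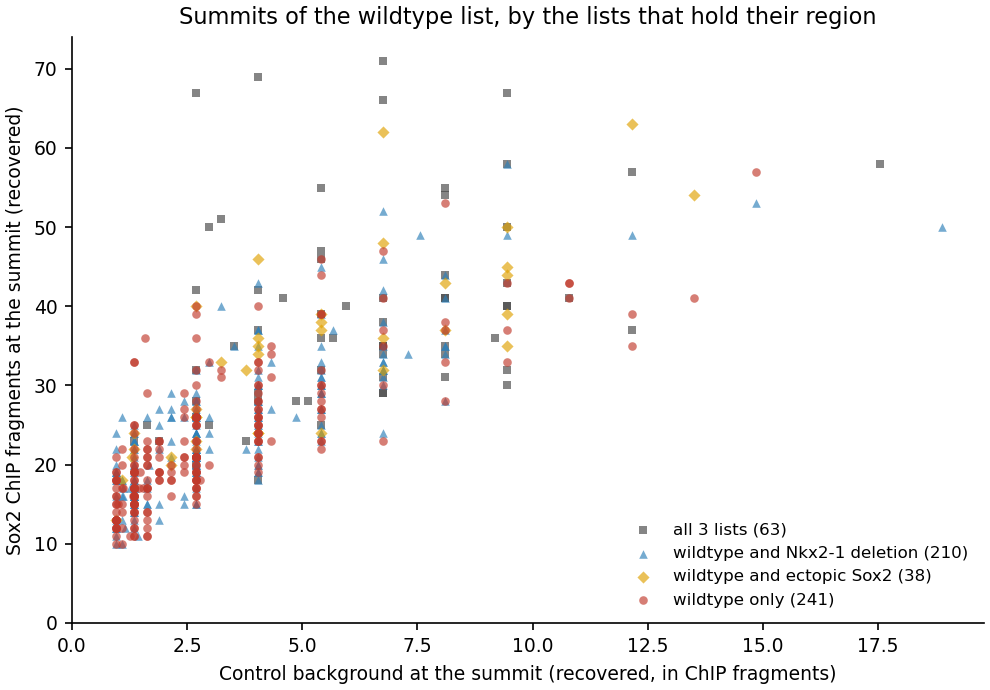
Each point is 1 of the 552 wildtype summits, placed by the control background (x axis) and the Sox2 ChIP fragments (y axis) at the summit, both in fragments as recovered from the listed values. The 241 wildtype-only summits reach from 10 to 57 fragments and overlap all other classes, and the 63 summits found in all 3 lists sit higher on both axes, with a median of 37 fragments against 21.

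Wildtype-only summits were shallower than those found again, as the choice of members favours. Their median was 21 fragments (quartiles 17 and 27, range 10 to 57). The 210 wildtype summits whose region was also listed with Nkx2-1 deletion alone had a median of 23.5 fragments, the 38 shared with ectopic Sox2 alone had 34.5, and the 63 found in all 3 lists had 37. The local control background was lower as well, with medians of 2.43 fragments in members, 2.70, 4.05 and 5.94. The fold differed less between classes, with a median of 5.98 in members and 5.69 in all 311 shared summits. A background no higher than the genome-wide value lay under 26 members (10.8%, interval 7.17 to 15.4%). It lay under 16 of the 210 summits shared with Nkx2-1 deletion alone (7.62%, 4.42 to 12.1%), whose interval overlaps that of the members, under 1 of the 38 shared with ectopic Sox2 alone, and under none of the 63 summits found in all 3 lists, for which the interval reaches 5.69%.

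**Figure D2:**
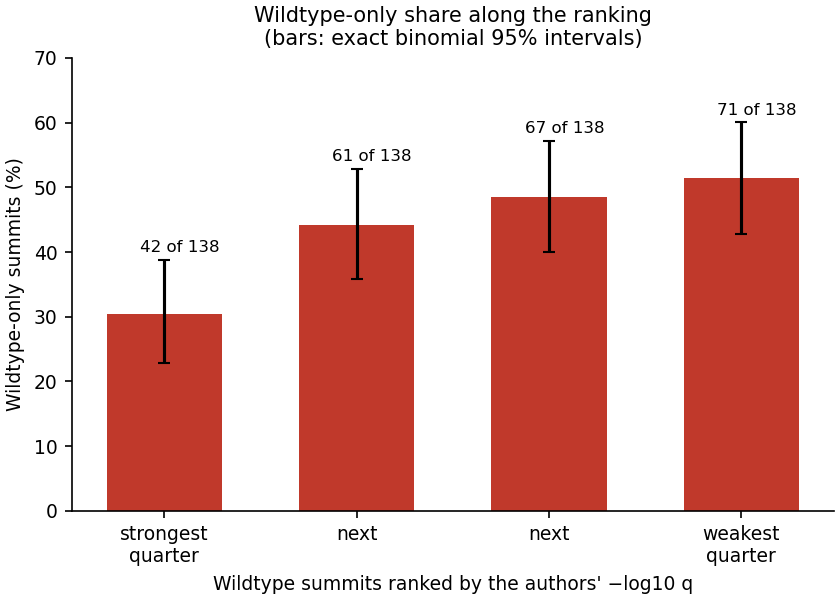
Bars give the percent of wildtype-only summits among 4 equal parts of the wildtype list, ranked by the authors' −log10 q from strongest to weakest, with exact binomial 95% intervals and counts above. The share is 30.4% among the strongest 138 summits and 51.4% among the weakest 138.

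Strong summits were among the members too. Of the strongest 138 wildtype summits by −log10 q, 42 were wildtype-only (30.4%, 22.9 to 38.8%), against 71 of the weakest 138 (51.4%, 42.8 to 60.04%). The leading 10 wildtype summits held 1 member, that of Tjp1, and the leading 50 held 16. At the other end, the weakest 4 members were nearest to Nedd4l, Itga1, Adcyap1 and Wdr72, with −log10 q between 1.42 and 1.45. With a −log10 q of at least 5, 126 members remained of 327 wildtype summits (38.5%).

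The members' wildtype signal can be set beside the entry level of the other lists. The rule used these values, so what follows is a description of point counts, with no test, and bears on no reason for absence. Scaled by depth after removal of the control background, 241 of the 241 members reached the smallest signal listed with Nkx2-1 deletion, and 224 reached the smallest listed with ectopic Sox2. The first level was so low that even the member with the fewest fragments, 10, reached it, so that count separates no members. A stricter rule, added after the data were seen, asked for the lowest −log10 p of the other list at the member's own control background relative to the genome-wide value. The depth-scaled wildtype fragments reached that level at 240 members for the Nkx2-1 deletion list, the exception being the weak summit near Nedd4l. For the ectopic Sox2 list they did at 209 members (86.7%). Wildtype summits found again passed the same rule in 100% of cases for the Nkx2-1 deletion list and in 93.1% for the ectopic Sox2 list. Nearly all wildtype summits of either kind thus passed for the Nkx2-1 deletion list. Whether depth accounts for the members being unlisted was not tested. A region must also be at least 200 bp wide in these lists, a condition not modelled here.

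The same rule gives a modelled limit on the fragments a site could have held and still be unlisted, with the width condition left out. At the Tjp1 summit this was 16 fragments in the Nkx2-1 deleted library, where the wildtype count times the depth ratio is 54.3. The modelled limit was thus 0.295 times the wildtype signal per depth. Its upper 95% limit was 0.545 when the 16 fragments are treated as if they had been counted. No count of that library was observed there, so these values are not a measured loss of Sox2. For Ppp2r2b and Cbl the limit was 0.322 (upper 0.601), for Peak1 0.348 (0.605) and for Zfp362 0.357 (0.622). With ectopic Sox2 alone the upper limits were 0.721 for Tjp1 and 0.794 for Ppp2r2b and Cbl. The upper limit stayed below 1 at 49 members with Nkx2-1 deletion (20.3%) and at 12 with ectopic Sox2 (4.98%). These 12 were the strongest 12 by −log10 q, from Tjp1 to Megf11. Neither count tests a loss of signal, because each limit is built from wildtype fragments and from being unlisted, which chose the members. Both counts depend on the settings given after the plot of listing limits.

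**Figure D3:**
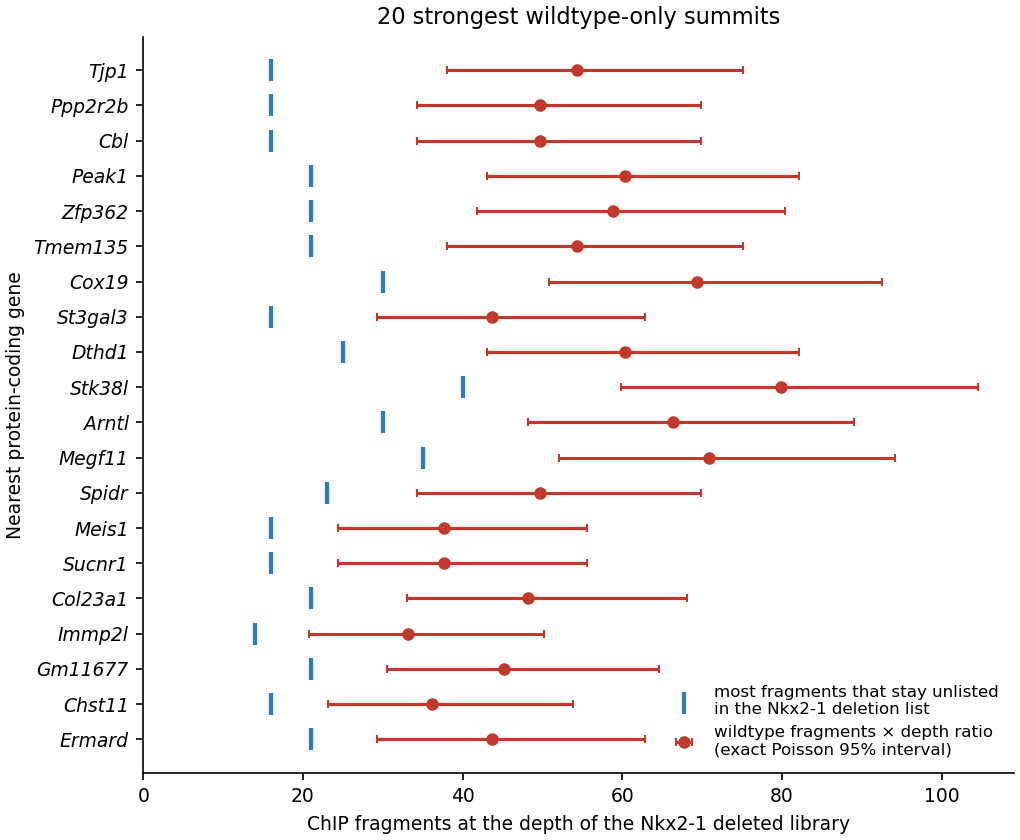
For the 20 strongest wildtype-only summits, named by nearest gene, points give the wildtype fragments times the depth ratio of 1.51, with exact Poisson 95% intervals, and ticks give the most fragments that stay unlisted in the Nkx2-1 deletion list (x axis, ChIP fragments at that library's depth). All 20 ticks lie left of the interval, from 14 fragments for Immp2l to 40 for Stk38l. Ticks are modelled limits, with no fragment count observed in that library.

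These limits assume that the control background relative to the genome-wide value was the same in each library. At wildtype regions listed again, it was a median of 1.16 times that of wildtype with Nkx2-1 deletion (quartiles 0.871 and 1.86) and 0.586 times with ectopic Sox2. With a control background 2 times as high, 7 members in place of 49 and 1 in place of 12 kept an upper limit below 1. Regions found again in the Nkx2-1 deleted library had a median of 1.33 times the fragments that depth predicts (quartiles 1.09 and 1.69), and those found again with ectopic Sox2 0.954 times. Scaled by the signal at regions found in all 3 lists in place of depth, 113 members had an upper limit below 1 with Nkx2-1 deletion. With ectopic Sox2 there were 12. Members were also picked for being high in wildtype and unlisted elsewhere, which lowers every such limit.

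Few members were near misses of the overlap rule. A region of another list lay within 500 bp of 4 members, within 1 kb of 7 and within 10 kb of 22. The closest was inside Cdk19, a kinase of the Mediator complex, 386 bp from a region of the Nkx2-1 deletion list. It was followed by a summit 12.3 kb from Dsg3, the desmosomal cadherin of basal cells (406 bp), by Adh7, a retinol-oxidising alcohol dehydrogenase of foregut epithelium (408 bp), and by Mthfd1l (426 bp from an ectopic Sox2 region). A summit 45.9 kb from Cxxc4 came next at 672 bp. On the other side of the rule, the smallest overlaps that removed a summit from the members were 18 bp nearest to Robo2, 51 bp to Cdh6, 67 bp to Nedd9, and 97 bp to Macc1 and A2ml1.

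Measured against genes, which the rule did not use, members were placed much as other wildtype summits. Inside a protein-coding gene and away from its ends lay 107 members (44.4%, 38.0 to 50.9%), against 44.7% of shared wildtype summits. The difference was -0.296 percentage points (95% interval -8.57 to 8.03). Within 1 kb of either end of a gene lay 10 members (4.15%, 2.01 to 7.50%), against 4.50%, a difference of -0.352 points (-3.82 to 3.42). A further 53 (22.0%) lay outside a gene but within 50 kb, and 71 (29.5%) lay farther away. Of the bases between the first and last gene of each chromosome, these 4 classes hold 37.9%, 3.01%, 22.9% and 36.2%. The shared summits were not alike at gene ends. Within 1 kb lay 15.8% of the 38 shared with ectopic Sox2 alone (members minus these -11.6 points, -26.4 to -2.66). The share was 1.90% of the 210 shared with Nkx2-1 deletion alone (2.24 points, -1.20 to 5.76) and 6.35% of the 63 found in all 3 lists (-2.20 points, -11.3 to 2.89).

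**Figure D4:**
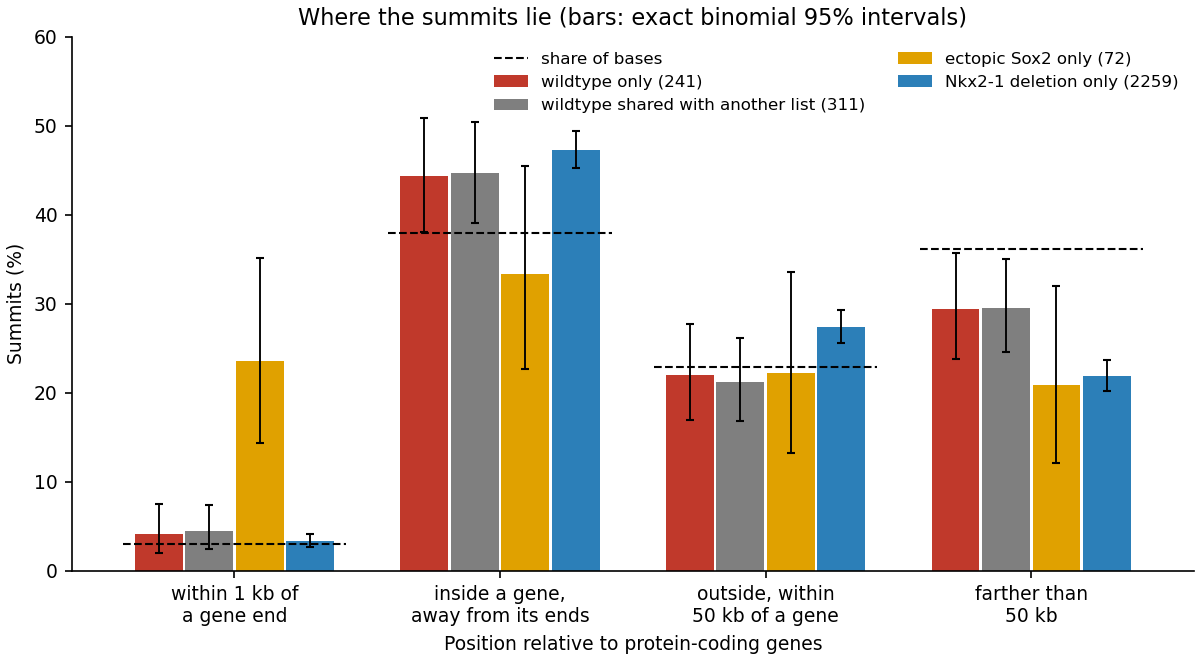
Percent of summits (y axis) in 4 classes of position relative to protein-coding genes (x axis), for wildtype-only summits, shared wildtype summits and the summits listed in 1 of the other conditions alone, with exact binomial 95% intervals; dashed lines give the share of bases in each class. Wildtype-only summits lie within 1 kb of a gene end in 4.15% of cases, Nkx2-1-deletion-only summits in 3.36% and ectopic-Sox2-only summits in 23.6%.

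At gene ends, the sites listed with ectopic Sox2 alone stood apart from the members. Of those 72 summits 17 lay within 1 kb of a gene end (23.6%), 19.5 percentage points more than of the members. The interval of members minus ectopic-only was -30.6 to -10.5. Of the 2259 summits listed with Nkx2-1 deletion alone 3.36% lay there, close to the members (members minus these 0.785 points, -1.27 to 4.17). Against the summits listed with Nkx2-1 deletion alone, members lay farther than 50 kb from any gene more often, by 7.59 points (1.92 to 13.9). That share was not particular to members. It was 29.5% in members and 29.6% in shared wildtype summits, a difference of -0.121 points (-7.68 to 7.59). Transcription starts were not told apart from the far ends of genes in these counts.

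Among the 10 members at gene ends, besides those of Cox19 (46 fragments), Fmo2, Tex2 (26) and Ercc2 (25), a helicase of nucleotide excision repair, were summits at Nsmaf with 2 summits in 1 region (16 and 11), Cytip (18), Lrp12 (21) and Skp1 (13), a subunit of SCF ubiquitin ligases.

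Genes that held a member were long. The 104 genes with a wildtype-only summit inside had a median length of 191 kb, against 131 kb for the 132 genes with a shared wildtype summit inside. A base drawn from any gene falls in a gene of 138 kb at the median, since long genes take up more of the genome. Genes over 100 kb made up 68.3% of those with a member and 56.8% of those with a shared wildtype summit, a difference of 11.5 percentage points whose interval (-1.03 to 23.3) includes 0. Against genes with a summit listed in the Nkx2-1 deletion alone the difference was 15.0 points (4.97 to 23.8).

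A region of the Nkx2-1 deletion list was within 50 kb of 51 members (21.2%), a description only, since the rule used that list. A further region of the wildtype list was within 50 kb of 7.88% of members and of 8.57% of the 210 wildtype summits shared with the Nkx2-1 deletion list alone, a difference of -0.688 points (-6.04 to 4.44). A second wildtype-only summit within 50 kb was found for 16 members at 8 loci, 4 of which are single regions with a pair of summits. The strongest pair lay 671 bp apart, 114 kb from Meis1, a homeobox factor, with 25 and 28 fragments.

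A protein-coding gene had a wildtype-only summit inside or within 50 kb in 278 of 21887 cases, which is 1.27%, and inside in 104, which is 0.475%. For 195 of the 278 genes neither other list had a summit within 50 kb, while 78 also had one with Nkx2-1 deletion and 14 with ectopic Sox2. Of all 21887 genes 86.2% had no such summit within 50 kb, 13.1% had one with Nkx2-1 deletion and 1.53% one with ectopic Sox2. For summits inside a gene, the share over all genes was not computed. The 104 genes are long, with a median of 191 kb against 17.2 kb for all protein-coding genes. The next count therefore describes these loci only. Within the span of 36 of the 104 genes another list held a summit at a different site. Sox5, a Sox factor without an activation domain, is one of these: its member held 22 fragments (13.8 to 33.3) at chromosome 6, 144043051 to 144043292, 21.0 kb from the nearest region with Nkx2-1 deletion. The gene also held 3 summits with Nkx2-1 deletion, the strongest with 92 fragments, and 1 with ectopic Sox2, with 14. Tjp1 held 2 summits with Nkx2-1 deletion, the stronger with 27 fragments, and Peak1 held 1, with 29. In Tnc, which encodes the matrix protein tenascin C, a member of 13 fragments stood beside a site with 78 fragments with Nkx2-1 deletion and 27 with ectopic Sox2, and in Runx1 a member of 11 fragments stood beside sites of up to 56 with Nkx2-1 deletion.

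The genes with a pair of members inside were Ppp2r2b, Rbfox2, Arhgap24, Abcc4, Hs3st5 and Mipol1, and in Hs3st5 and Mipol1 both lay in 1 region. In Ppp2r2b the second site held 57 fragments (43.2 to 73.9), the most of any member, over a control background of 14.8 fragments and at a fold of 3.60. Neither other list had a summit inside Ppp2r2b, Rbfox2 or Hs3st5. Abcc4, a transporter of cyclic nucleotides, held members of 17 and 14 fragments, and also 4 summits with Nkx2-1 deletion, the strongest with 127.

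Of 20 gene lists, each set beside the background of 1.27%, 12 had at least 1 gene within 50 kb of a member and 8 had none. Tight and adherens junction genes had 3 of 29, among them Tjp1 and Cdh1, the gene of E-cadherin. The same list had 2 of 29 near a shared wildtype summit, 9 near a summit with Nkx2-1 deletion and 1 near one with ectopic Sox2. Of all genes, 13.1% were near a summit with Nkx2-1 deletion and 1.53% near one with ectopic Sox2. The Cdh1 summit held 32 fragments (21.9 to 45.2) inside the gene, 986 bp from a region of the Nkx2-1 deletion list. Tjp1 and Cdh1 also counted within 10 kb, where 0.617% of all genes have a member, and with −log10 q of at least 5. Sox family genes had 2 of 19, Sox5 and Sox21. As many of the 19 were near a shared wildtype summit (2) and near one with ectopic Sox2 (2), and 3 were near one with Nkx2-1 deletion. For shared wildtype summits the share over all genes was not computed, so their counts in this and the junction list lack a background. The Sox21 summit held 33 fragments (22.7 to 46.3) at chromosome 14, 118230200 to 118230798, 2.82 kb from the gene, in the widest region of all members, and its nearest region of another list lay 185 kb away. Sox21 was also the only gene of 17 in the neural Sox2 list. Farther members had Sox14, at 76.6 kb, and Sox6, at 159.8 kb, as their nearest gene.

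In the gastric and intestinal list 3 of 20 genes counted, namely Tff1, Tff2 and Tff3, whose trefoil peptides protect mucosa. They shared 1 summit of 22 fragments (13.8 to 33.3), which lay inside Abcg1 and between 11.6 and 47.7 kb from them, so that none counted within 10 kb. Basal and squamous genes had 2 of 25: Dsg3, with 26 fragments at the site near the Nkx2-1 deletion region, and Col17a1, a hemidesmosome collagen, with 21 fragments (13.0 to 32.1) 37.7 kb away, where Sfr1 is nearer. Neither was within 10 kb. The same list had 17 of 25 genes near a summit with Nkx2-1 deletion, beside 13.1% of all genes, and 2 near one with ectopic Sox2, beside 1.53%.

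Single genes stood for 7 further lists. Cbl was the 1 of 28 in Egf receptor signalling. Sav1, the scaffold of the Hippo kinases, was 1 of 20 in the Hippo pathway, with 31 fragments (21.1 to 44.0) 10.2 kb from the gene and the nearest region of another list 496 kb away. Meis2 was 1 of 26 among lung and foregut transcription factors (28 fragments, 43.2 kb away) and Tcf7 1 of 28 in the Wnt pathway (13 fragments at the Skp1 end, 15.9 kb away). Cdk6 was 1 of 22 among cell cycle genes, with 12 fragments inside the gene. For other cells a preparation could hold, S100a8 was 1 of 16 immune genes (21 fragments, 30.0 kb away) and Pecam1 1 of 14 endothelial genes, 41.1 kb from the Tex2 promoter summit. None of 20 secretory and ciliated airway, 18 alveolar type 2, 14 alveolar type 1, 18 Notch, 34 Fgf, Bmp, Tgfb and Hedgehog, 17 pluripotency, 20 housekeeping or 15 mesenchymal genes had a wildtype-only summit within 50 kb. At 1.27%, lists of this length hold no or few genes by the background alone, and a count of 1 or 0 says little about a list.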

How the data were processed

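Per the submitters' processing notes, reads were processed with Bowtie2 2.2.9, SAMtools 1.4, MACS2 2.1.1 and HOMER 4.8.3 on mm10. The deposited peak lists, 1 per Sox2 ChIP library, give per summit a score, −log10 p, −log10 q and a fold ratio of ChIP over control, all the authors' values. The sources used here do not give the control, the threshold or the treatment of duplicates.

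From fold and −log10 p the ChIP pileup and control background were solved, with the pseudocount of 1 that MACS2 adds. Pileups were whole fragments times 1 scale per library (tolerance 0.02). All summits gave a solution. Several solutions were found for 14 of 552 wildtype summits, 87 of 2589 with Nkx2-1 deletion and 9 of 229 with ectopic Sox2, and the closest was used. The recovery was tested on simulated data, which did not reach down to the weakest members or up to the highest control backgrounds. Depth is the genome-wide background divided by the scale.

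Overlap was taken at 1 bp and checked with bedtools 2.31.1. Genes (21887 protein-coding) came from RefSeq, GRCm38.p6. All 420 entries of the 20 gene lists matched. Intervals on shares are exact binomial, on differences of shares Newcombe, on fragments exact Poisson. Motif shares around summits, planned, were not run because no genome was used here; promoters stood in.

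Named genes are those nearest to the 20 members with the highest −log10 q, the 10 with the largest fold, the 5 weakest and 3 widest members, and those nearest the edges of the overlap rule. They also include genes with a member within 1 kb of an end or 2 members inside, and up to 4 genes per list. Genes named for other summits at the same gene were chosen after their values were seen. Members and lists were chosen with earlier results of these data known. 1 gene that the rule names is not reported here. Positions count from 1.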

Additional observations from a re-analysis of the deposited data

How the results depend on the processing

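Of 36 alternatives to the main results, 29 stayed within the interval of the share or within 1.5 times the count. The number of wildtype-only summits lay between 234 and 261 under other overlap rules or with 1 line per region, and was 126 with −log10 q of at least 5. Genes near a member numbered 278, and 155 for members whose −log10 q reached 5, 135 for a window of 10 kb and 464 for 100 kb. These counts move because the windows or the summits used differ in number. The upper limit of the modelled signal ratio with Nkx2-1 deletion stayed below 1 at 49 members. With a control background 2 times as high it did at 7, and when scaled by signal at 113. With ectopic Sox2 the higher background gave 1, against 12. These alternatives were chosen after seeing the data. No paired analysis was possible because each condition has 1 library, and no library could be left out. Members had a median of 21 fragments in wildtype. No fragment count of another library was available at them, so no loss of signal of any size was measured.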

Other observations

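The wildtype-only share varied between chromosomes within wide intervals. On chromosome 18, 14 of 23 wildtype summits were wildtype-only (60.9%, exact binomial 95% interval 38.5 to 80.3%), and on chromosome 6, 9 of 32 (28.1%, 13.7 to 46.7%). Chromosome 19 had 5 members among 15 wildtype summits (33.3%, 11.8 to 61.6%), and chromosome X had 2 among 3 (66.7%, 9.43 to 99.2%).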
